A study of Homo sapiens with 8 samples.

Results

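The interleukin-1 family and the inflammasome were followed here through 10 genes, out of 11963 genes named on the arrays. Their members were all probe sets that the array annotation assigns to IL1B, IL1A, IL18, IL1RN, IL1R2, IL1RAP, MYD88, NLRP3, PYCARD or CASP1, which gave 24 of 22215 probe sets. The rule itself uses the annotation and no intensities. A probe set is a group of short array probes aimed at 1 transcript, and most of these genes had several. CASP1 and IL1RN each had 5, NLRP3 had 3, IL1B, IL1A, IL1R2 and IL1RAP had 2 each, and IL18, MYD88 and PYCARD had 1 each.

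RNA came from 4 groups of human acute myeloid leukaemia cells, with 2 arrays in each group titled as biological replicates. The groups were THP-1 cells given 100 µM diclofenac, THP-1 cells given DMSO, HL-60 cells given 100 µM diclofenac and HL-60 cells given DMSO, all for 48 h. Diclofenac is an anti-inflammatory drug that blocks the cyclooxygenases, and DMSO is its solvent. Per the labels HL-60 is a promyelocytic leukaemia line, THP-1 is known as a monocytic one, and each is a single established line, so the comparisons describe these cultures. The labels do not say how the replicate cultures were set up, and p-values measure the spread between these arrays, which may be partly technical.

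Interleukin-1 signalling starts when IL-1α or IL-1β binds its receptor together with the accessory chain IL1RAP, and the adaptor MYD88 carries the signal to NF-κB and the MAP kinases. IL-1β and IL-18 are made as inactive precursors. A sensor such as NLRP3 assembles with the adaptor ASC, encoded by PYCARD, and with caspase-1 into the inflammasome, and caspase-1 then cuts both precursors. IL1RN, a receptor antagonist, and IL1R2, a decoy receptor, restrain the pathway, and monocytes are among its main sources. Arrays measure the transcripts, not the cleaved proteins.

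The start-site regions of IL1B, NLRP3 and MYD88 are shown because IL1B was the member with the smallest p under diclofenac in THP-1 and NLRP3 and MYD88 were a sensor and an adaptor that differed between the lines. RefSeq windows of 250 bases before and 50 bases from the start site on (assembly GRCh38.p14) were matched by symbol for 8 of the 10 genes, and IL18 and CASP1 had none. Capitals mark every match, on either strand, to the searched letters TGANTCA (AP-1, the factor named in the study's title), GGGA and CC with any 4 bases between them (NF-κB), GAGGAA (PU.1 and ETS factors), GAANNTTC (interferon regulatory or STAT factors) and TTGCNNCAA (C/EBP). The windows run 5′ to 3′ on the strand of the gene, for IL1B on the minus strand at chr2:112836730-112837029, for NLRP3 on the plus strand at chr1:247415923-247416222 and for MYD88 on the plus strand at chr3:38138411-38138710.
IL1B: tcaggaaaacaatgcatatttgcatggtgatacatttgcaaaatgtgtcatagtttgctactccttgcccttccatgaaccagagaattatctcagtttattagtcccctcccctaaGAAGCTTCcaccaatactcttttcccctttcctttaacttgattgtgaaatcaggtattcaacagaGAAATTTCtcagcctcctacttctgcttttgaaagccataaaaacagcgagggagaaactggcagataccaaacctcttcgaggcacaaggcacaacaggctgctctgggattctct
NLRP3: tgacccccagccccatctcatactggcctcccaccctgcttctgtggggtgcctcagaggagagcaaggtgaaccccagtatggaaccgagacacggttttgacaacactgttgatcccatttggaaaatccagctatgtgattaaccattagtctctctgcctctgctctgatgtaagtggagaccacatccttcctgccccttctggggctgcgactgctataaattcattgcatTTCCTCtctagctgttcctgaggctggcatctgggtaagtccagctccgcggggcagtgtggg
MYD88: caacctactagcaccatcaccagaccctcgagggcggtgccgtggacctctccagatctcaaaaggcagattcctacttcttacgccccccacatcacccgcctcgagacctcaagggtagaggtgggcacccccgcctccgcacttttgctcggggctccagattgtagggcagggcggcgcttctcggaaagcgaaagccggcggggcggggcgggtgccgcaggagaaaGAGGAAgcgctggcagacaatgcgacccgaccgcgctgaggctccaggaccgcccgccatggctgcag

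IL1B held GAANNTTC at -133 and -67 from its start site, letters that 6.77% of all 35116 windows hold, and no other match. NLRP3 held GAGGAA on the opposite strand at -13 and MYD88 held it at -18, as did 27.9% of all windows, and PYCARD held it at -30 and 10. TGANTCA, in 7.71% of all windows, was matched at 2 places in IL1A, at -105 and -55 from the downstream of its annotated start sites, and in IL1RN at -223. The NF-κB letters, in 25.6% of windows, was matched in IL1RAP and IL1R2, and TTGCNNCAA, in 1.98%, in no member window. A match describes letters and not a bound site, and none of the matches overlapped another.

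Values below are the deposited linear intensities of each array, and changes are differences of normalized log2 intensity from limma with their standard errors (SE, n = 2 arrays per group). A probe set counted as above background when it was brighter than 95% of the 27 probe sets for bacterial RNA on its own array. By this measure 22 of the 24 probe sets were above background on at least 1 array, and 13 were on all 8. The exceptions below background throughout were a probe set of IL1RN (216244_at) and a probe set of IL1R2 (205403_at). A probe set was called when its p, adjusted by Benjamini-Hochberg over all 22215 probe sets, was under 0.05. Intensities of different probe sets are not set against each other, and in bulk RNA fewer expressing cells and less RNA per cell cannot be told apart.

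THP-1 DMSO replicate 2 stood apart. Its background was 238.6, against 33.2 to 60.2 on the other arrays, and 50.32% of its probe sets were above background, against 66.36% to 72.14% elsewhere. It correlated with THP-1 DMSO replicate 1 at 0.892, while the other replicate pairs correlated at 0.975 to 0.984. Leaving it out is reported beside the member results that it moved. Markers did not settle that the cells were those each label names, so the line names are those of the labels. The granule and monocyte marker lists each ran in both directions on the DMSO arrays labelled THP-1 against those labelled HL-60. Of the promyelocyte granule genes, AZU1 (log2 difference 2.47 ± 0.09), PRTN3 (1.66 ± 0.07) and ELANE (0.27 ± 0.06) were higher, and CTSG (-0.35 ± 0.07) was lower. MYB, on the same list, had -0.24 ± 0.09 without a call. Of 9 measured monocyte genes, CD36 (-4.16 ± 0.16) and FCN1 (-2.09 ± 0.51) were lower and CSF1R (1.24 ± 0.35) was higher. VCAN (0.80 ± 0.33), CD86 (0.54 ± 0.48), LYZ (-0.16 ± 0.12) and ITGAM (-0.34 ± 0.26) were not called. FCGR1A and CD14 read higher on both THP-1 DMSO arrays, also without a call, and were above background on neither HL-60 DMSO array. The 6 granule genes summed to 42237.2 and 59198.8 on the THP-1 DMSO arrays, against 38284.5 and 39741.2 on the HL-60 DMSO arrays. The 9 monocyte genes summed to 11508.4 and 15871.5, against 17772.5 and 18374.3. Of 3 genes listed for the MLL-AF9 program of THP-1, only MEIS1 was measured. It was lower on the THP-1 arrays with DMSO (-0.99 ± 0.26) and with diclofenac (-1.23 ± 0.26). With diclofenac on both sides the monocyte gene CD14 was at least 3.69-fold higher on the arrays labelled THP-1 (adjusted p = 0.0044). The granule gene MPO read higher on both THP-1 DMSO arrays than on both HL-60 DMSO arrays, where it was not above background. CD14 was not above background on any HL-60 array. The 5 measured lymphocyte markers summed to 151.6 and 1505 on the THP-1 DMSO arrays, against 215.8 to 402.6 in the other groups. Only 1 of these 5 was above background on both THP-1 DMSO arrays, against 2 to 4 in the other groups.

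**Figure D1:**
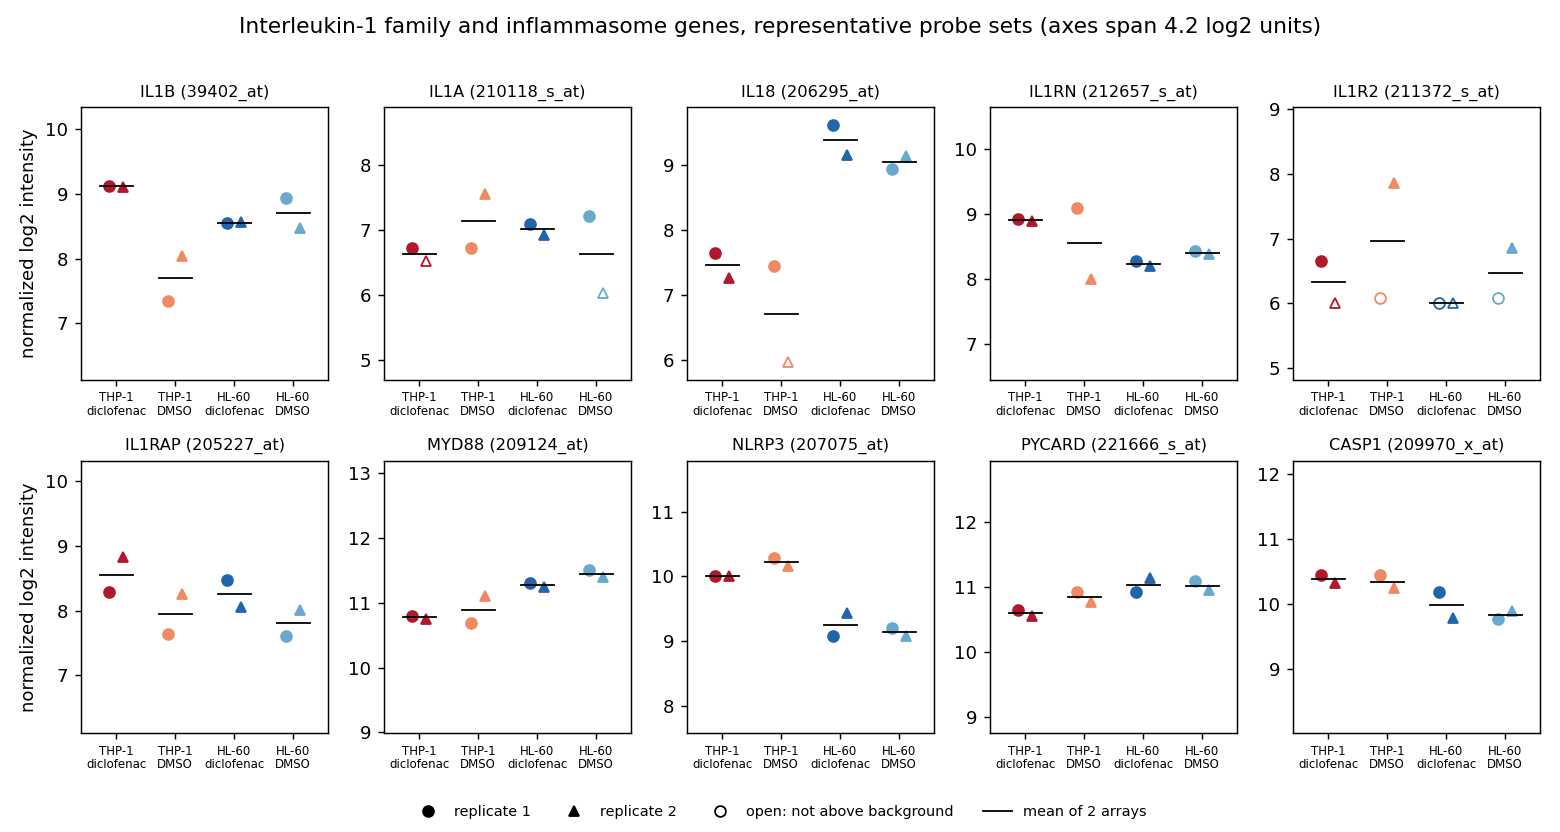
Normalized log2 intensity of the representative probe set (the brightest on average) of each of the 10 genes, by group on the x axis, with every panel spanning the same number of log2 units. Circles are replicate 1, triangles replicate 2, open symbols are not above background and bars are means of 2 arrays. IL18 and MYD88 sat lower and NLRP3 higher on all 4 THP-1 arrays than on all 4 HL-60 arrays, whereas the IL1B points of THP-1 diclofenac sat at 9.12 and 9.11 above those of THP-1 DMSO at 7.35 and 8.04.

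Diclofenac against DMSO in THP-1 asked whether the drug changed these genes in the THP-1 cultures. None of the 24 probe sets was called, where 0.135% of all probe sets were. At an unadjusted p under 0.05 there was 1, a probe set of IL1B, where 10.6% of all probe sets lay. IL1B encodes IL-1β, the main cytokine matured by the inflammasome. Its brighter probe set (39402_at) read 494.5 and 482.7 in THP-1 cells with diclofenac, against 92.7 and 323.9 with DMSO. Both diclofenac arrays were above both DMSO arrays, which differed from each other by more than the diclofenac arrays did. The log2 change was 1.42 ± 0.29, or 2.68-fold (limma, adjusted p = 0.17).

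The second probe set of IL1B (205067_at) gave another picture. It read 391.0 and 336.5 with diclofenac, against 183.9 and 513.4 with DMSO in THP-1 cells. THP-1 DMSO replicate 2 was the highest array for this probe set, so the groups overlapped, and the log2 change was 0.25 ± 0.35 (adjusted p = 0.77). Over the 8 arrays the 2 probe sets of IL1B correlated at 0.1, as a description over arrays that share their groups. The change of their mean was 0.84 ± 0.27 (adjusted p = 0.36).

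Leaving out THP-1 DMSO replicate 2 raised the change of IL1B to 1.85 by 39402_at, which was then called (adjusted p = 0.041), and to 0.74 by 205067_at, which was not (0.48). Without THP-1 DMSO replicate 1 the values were 1.07 and -0.20, and 39402_at was also called (0.0095), in a fit in which 6892 probe sets were called in all. Over 16 alternatives the change of 39402_at stayed between 1.07 and 1.85 and its adjusted p between 0.0095 and 0.85. Monocyte markers were read beside IL1B. The summed intensity of 9 measured monocyte markers was 16544.9 to 16772.7 with diclofenac, against 11508.4 to 15871.5 with DMSO, with 8 and 7 of them above background on both arrays of the group. None of the 9 was called. CD14, the lipopolysaccharide co-receptor, had a log2 change of 2.18 ± 0.40 (adjusted p = 0.12) and CD36 one of 1.12 ± 0.16 (0.058), with 0.50 for VCAN, 0.39 for ITGAM and 0.19 for LYZ. The other 4 had changes below 0, at -0.18 for FCGR1A, -0.23 for CSF1R, -0.31 for FCN1 and -0.65 for CD86. Their part in the IL1B values was not tested.

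**Figure D2:**
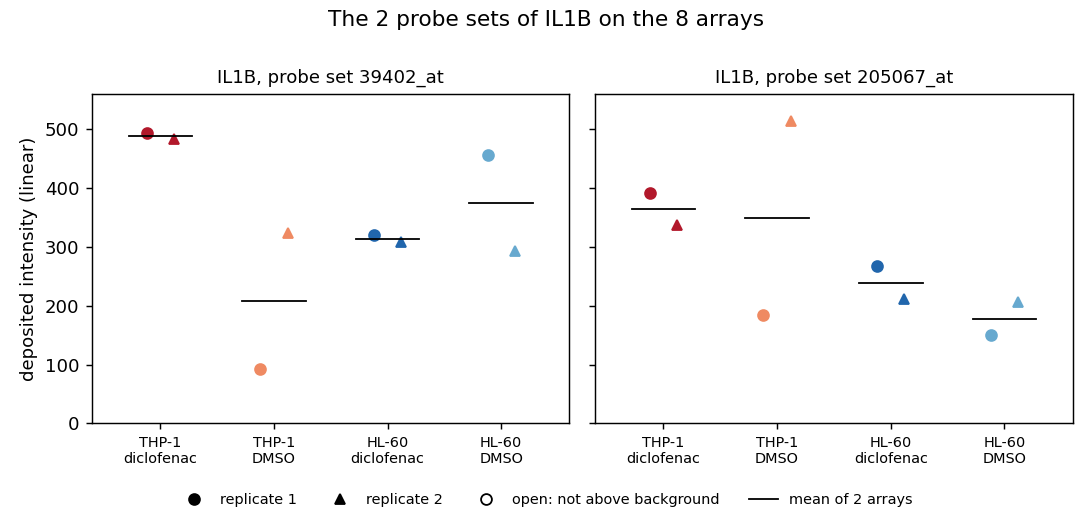
Deposited linear intensity of both IL1B probe sets (left 39402_at, right 205067_at) on the 8 arrays by group, with replicate 1 as circles, replicate 2 as triangles and bars as means of 2 arrays. The left panel shows THP-1 diclofenac at 494.5 and 482.7 above THP-1 DMSO at 92.7 and 323.9, and the right panel shows THP-1 DMSO replicate 2, at 513.4, above every other array.

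Among the other ligands, IL1A encodes IL-1α, which is active without cleavage. By 210118_s_at it read 50.9 and 35.0 with diclofenac, against 44.6 and 250.3 with DMSO in THP-1 cells. By 208200_at it read 63.0 on both diclofenac arrays, against 86.0 and 66.6 with DMSO. The values 35.0 (210118_s_at) and 66.6 (208200_at) were not above the background of their arrays, which was 238.6 for the second. The log2 changes were -0.52 ± 0.47 and 0.19 ± 0.40. For 208200_at the deposited intensities were lower on both diclofenac arrays, while the normalized groups overlapped. Without THP-1 DMSO replicate 2 the log2 changes were -0.10 and -0.35.

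IL18, whose product drives interferon-γ release, read 142.3 and 87.8 with diclofenac, against 102.6 and 48.3 with DMSO in THP-1 cells. The groups overlapped, with a log2 change of 0.75 ± 0.46 (adjusted p = 0.53). This change was 0.02 without THP-1 DMSO replicate 2, on which IL18 was not above background, and 1.49 (adjusted p = 0.0077) without replicate 1.

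The brightest probe set of IL1RN (212657_s_at) read 425.3 and 405.9 with diclofenac, against 469.7 and 319.1 with DMSO in THP-1 cells. The DMSO arrays lay on either side of the diclofenac arrays. Its log2 change was 0.36 ± 0.34 (adjusted p = 0.65), or -0.19 without THP-1 DMSO replicate 2 and 0.90 without replicate 1 (adjusted p = 0.0098). The other 3 IL1RN probe sets above background somewhere had -0.03, 0.01 and -0.33.

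Of the receptor chains, IL1R2 (211372_s_at) read 46.1 and 9.2 with diclofenac, against 12.2 and 295.3 with DMSO in THP-1 cells. It was above background on 1 array of each group, and its log2 change was -0.65 ± 0.54. The change of IL1R2 was 0.24 without THP-1 DMSO replicate 2, and without replicate 1 it was -1.53 and was called (adjusted p = 0.023). IL1RAP (205227_at) read 250.4 and 376.5 with diclofenac, against 126.0 and 362.1 with DMSO. On the normalized scale both diclofenac arrays were higher, by 0.60 ± 0.35 (adjusted p = 0.52), and by 0.96 (0.43) without THP-1 DMSO replicate 2. The dimmer IL1RAP probe set had 0.04 ± 0.37.

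None of the adaptor and inflammasome genes was called between diclofenac and DMSO in THP-1 cells. MYD88 read 1787.6 and 1730.5 with diclofenac, against 1630.2 and 1813.4 with DMSO (log2 change -0.11 ± 0.14). NLRP3 (207075_at) read 997.5 and 989.7, against 1212.5 and 1025.9 with DMSO (-0.21 ± 0.16). PYCARD read 1598.3 and 1494.1, against 1981.1 and 1480.0 with DMSO (-0.25 ± 0.12, adjusted p = 0.48). After normalization both diclofenac arrays lay below both DMSO arrays for NLRP3 and PYCARD, and none of the 3 genes passed the test. With each array centred on its median these changes were 0.39 for MYD88, 0.19 for NLRP3 and 0.21 for PYCARD, again without a call, where the same centring moved the median of all genes by 0.20. They were 0.10 for MYD88, -0.28 for NLRP3 and -0.33 for PYCARD without THP-1 DMSO replicate 2. Without replicate 1 MYD88 had -0.32 and was called (adjusted p = 0.034). CASP1 (209970_x_at) read 1371.9 and 1242.5 with diclofenac, against 1361.9 and 1076.4 with DMSO, a log2 change of 0.04 ± 0.16, and its other 4 probe sets had -0.44 to 0.19. The 5 CASP1 changes were -0.18 to 0.09 without THP-1 DMSO replicate 2, and none was called.

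Counted over all 24 probe sets, 3 were higher on both diclofenac arrays than on both DMSO arrays of THP-1 after normalization, or 12.5%, where 18.7% of all probe sets were. Another 5 were lower on both, or 20.8%, where 20.9% of all probe sets were. These shares lie near or below the background.

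Diclofenac against DMSO in HL-60 put the same question to the HL-60 cultures. None of the 24 probe sets was called, where 0.0045% of all probe sets were, and none had an unadjusted p under 0.05, where 4.5% did. IL1B read 319.6 and 309.0 with diclofenac by 39402_at, against 456.2 and 293.2 with DMSO in HL-60 cells (log2 change -0.14 ± 0.29). By 205067_at it read 266.9 and 211.8, against 149.9 and 206.2 with DMSO (0.46 ± 0.35). The groups overlapped for the brighter probe set and did not for the other, and the directions were opposite.

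IL1RN was the gene with the most probe sets lower on both diclofenac arrays in HL-60. The brightest (212657_s_at) read 252.9 and 223.1 with diclofenac, against 313.8 and 273.5 with DMSO, a log2 change of -0.17 ± 0.34. By 216243_s_at the values were 121.1 and 99.7, against 233.4 and 164.3 with DMSO (-0.46 ± 0.28), and by 212659_s_at 126.1 and 63.5, against 200.1 and 146.6 (-0.48 ± 0.38). The probe set 216245_at read 5.5 and 4.3 with diclofenac, neither above background, against 85.5 and 14.6 with DMSO, of which 1 was. All 4 were lower on both diclofenac arrays, and the adjusted p was 1 for each. These probe sets share a gene and arrays and are not separate evidence.

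The other ligands and receptor chains in HL-60 were not called either. IL18 read 744.8 and 502.7 with diclofenac, against 465.1 and 514.7 with DMSO (0.34 ± 0.46). IL1RAP (205227_at) read 297.0 and 194.5, against 162.7 and 193.7 with DMSO (0.46 ± 0.35). IL1R2 (211372_s_at) was not above background on either diclofenac array and was above it on 1 DMSO array, at 57.9. IL1A (210118_s_at) read 73.6 and 56.9, against 115.8 and 10.7 with DMSO (0.39 ± 0.47), and its other probe set had -0.36 ± 0.40.

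MYD88 in HL-60 cells read 2545.6 and 2414.1 with diclofenac, against 2783.6 and 2720.2 with DMSO, with both diclofenac arrays below both DMSO arrays (log2 change -0.17 ± 0.14, adjusted p = 1). NLRP3 (207075_at) read 496.5 and 615.4, against 558.6 and 490.7 with DMSO (0.11 ± 0.16), and PYCARD 1968.2 and 2239.0, against 2088.6 and 1967.3 (0.01 ± 0.12). The 5 CASP1 probe sets had log2 changes of 0.06 to 0.34, all above 0 and none called. In all, 7 of the 24 probe sets (29.2%) were higher on both diclofenac arrays of HL-60, where 20.1% of all probe sets were, and 8 (33.3%) were lower, where 19.1% were. Several of the higher ones share CASP1 and several of the lower ones IL1RN. IL1R2 205403_at, among the higher, and NLRP3 216016_at, among the lower, were above background on no HL-60 array.

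**Figure D3:**
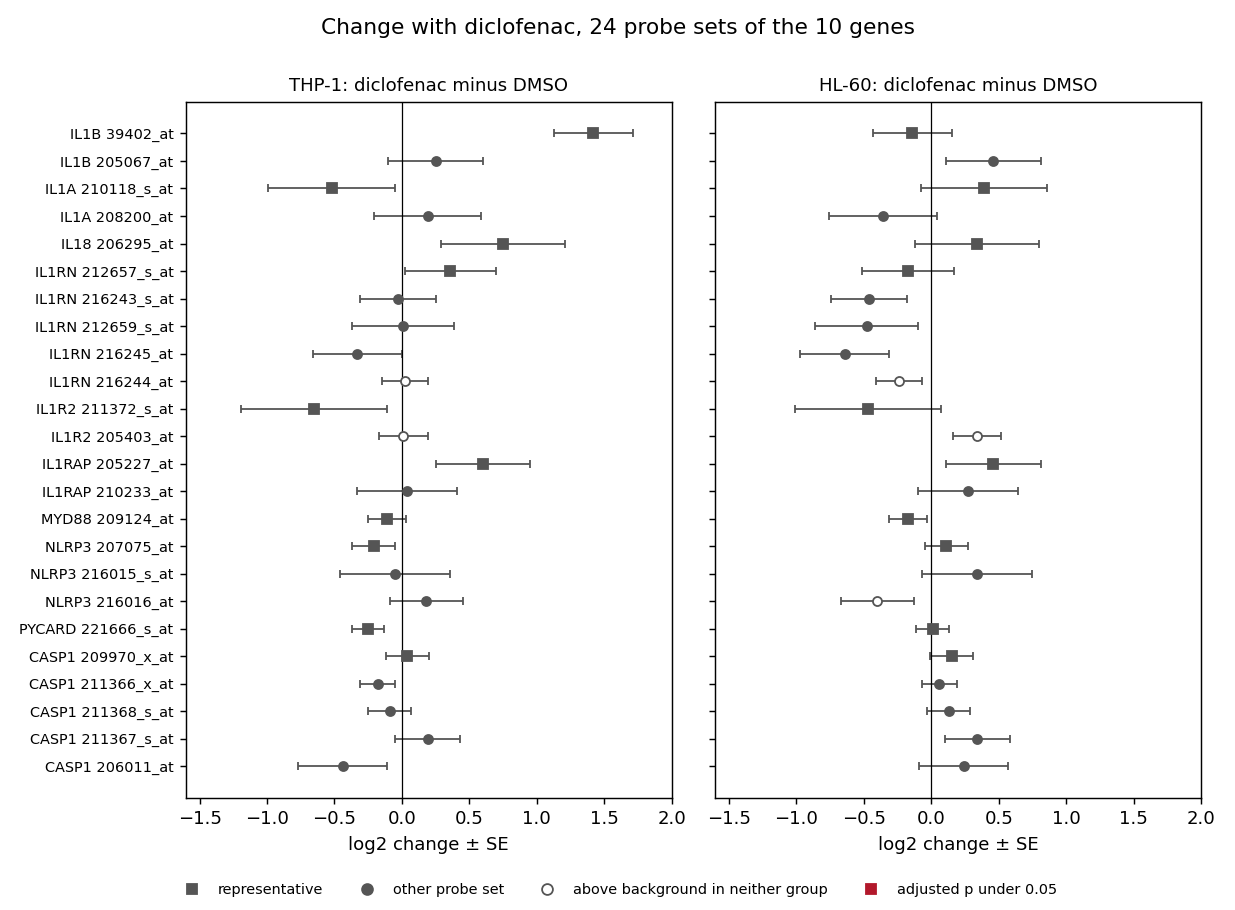
Log2 change with diclofenac (x axis, diclofenac minus DMSO, with SE bars) for each of the 24 probe sets in THP-1 (left) and HL-60 (right). Squares are representatives, circles other probe sets and open circles were above background in neither group. No point is in the colour kept for an adjusted p under 0.05, and the point farthest from 0 is IL1B 39402_at in THP-1 at 1.42 ± 0.29.

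Whether the drug's effect differed between the lines was tested as the change in THP-1 minus the change in HL-60. None of the 24 probe sets was called, where 0.0045% of all probe sets were. IL1B by 39402_at had a difference of 1.57 ± 0.41 log2 units (adjusted p = 0.46), and it was the only member with an unadjusted p under 0.05, where 6.94% of all probe sets lay. This difference of IL1B was 2.00 (adjusted p = 0.11) without THP-1 DMSO replicate 2, and without replicate 1 it was 1.21 and was called (0.025), as was 1 probe set of IL1RN. By 205067_at the difference was -0.21 ± 0.50, and by the mean of both 0.68 ± 0.38 (adjusted p = 0.76). The other 9 representatives had differences from -0.91 ± 0.66 for IL1A to 0.53 ± 0.48 for IL1RN. A change past no threshold in either line does not show that these genes respond alike.

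The lines were compared within each treatment. With DMSO, 6 of the 24 probe sets (25%) differed between THP-1 and HL-60, where 15.3% of all probe sets did. NLRP3, CASP1, IL18 and MYD88 supplied them. With diclofenac on both sides, 4 probe sets (16.7%) differed, those of NLRP3, IL18, MYD88 and PYCARD, where 13% of all probe sets did. The DMSO comparison and the diclofenac comparison share no arrays, but 1 estimate of the spread. With DMSO the count fell to 1, that of NLRP3, when either HL-60 DMSO array was left out, and it was 3 without any 1 diclofenac array, 9 without THP-1 DMSO replicate 2 and 10 without replicate 1. With diclofenac it was 0 without either THP-1 diclofenac array or HL-60 diclofenac replicate 1. It was 1, that of NLRP3, without HL-60 diclofenac replicate 2 or either HL-60 DMSO array, and 8 without either THP-1 DMSO array.

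IL18 was lower in THP-1. Its intensities of 102.6 and 48.3 in THP-1 DMSO cells stood against 465.1 and 514.7 in HL-60 DMSO cells, a log2 difference of -2.34 ± 0.46, or 5.07-fold lower (adjusted p = 0.01). With diclofenac they were 142.3 and 87.8 in THP-1 and 744.8 and 502.7 in HL-60, or 3.83-fold lower (-1.94 ± 0.46, adjusted p = 0.027). No THP-1 array reached any HL-60 array. Without THP-1 DMSO replicate 2 the DMSO difference of IL18 was -1.69 (adjusted p = 0.0059), and with HL-60 DMSO replicate 1 or 2 left out it was -2.44 (0.07) or -2.23 (0.088).

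NLRP3, the sensor, was higher in THP-1. By 207075_at it read 1212.5 and 1025.9 in THP-1 DMSO cells, against 558.6 and 490.7 in HL-60 DMSO cells, or 2.12-fold higher (1.08 ± 0.16, adjusted p = 0.0024). With diclofenac it read 997.5 and 989.7 in THP-1, against 496.5 and 615.4 in HL-60 (1.69-fold, 0.75 ± 0.16, adjusted p = 0.016). All 4 THP-1 arrays lay above all 4 HL-60 arrays, and without THP-1 DMSO replicate 2 the DMSO difference of NLRP3 was 1.18 (adjusted p = 0.0028). The dim probe set 216015_s_at read 115.6 and 93.4 in THP-1 DMSO cells, against 13.1 and 26.7 in HL-60 DMSO cells, where it was not above background. On THP-1 DMSO replicate 2 this probe set was not above background either. Its THP-1 mean stood 1.26-fold above the lowest signal that counts as detected in HL-60 (adjusted p = 0.21), with 1 of the 2 THP-1 arrays detected. The remaining probe set of NLRP3 was above background on 1 array only. The mean of the 3 differed by 0.64 with DMSO (adjusted p = 0.15) and 0.59 with diclofenac (0.22), so neither NLRP3 call was kept under that summary.

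CASP1 encodes caspase-1, and all 5 of its probe sets read higher on both THP-1 DMSO arrays than on both HL-60 DMSO arrays. Of these, 3 were called. The probe set 211366_x_at read 1259.8 and 1148.3 in THP-1, against 771.4 and 750.1 in HL-60 (0.69 ± 0.13, adjusted p = 0.0093), and without THP-1 DMSO replicate 2 it differed by 0.70 (0.01). By 211368_s_at CASP1 read 721.9 and 684.7 in THP-1 DMSO cells, against 441.0 and 427.4 in HL-60 DMSO cells (0.64 ± 0.16, adjusted p = 0.028), and by 0.75 (0.0078) without that replicate. For 206011_at the readings were 220.7 and 474.4, against 119.6 and 102.0 (1.20 ± 0.33, adjusted p = 0.042), and without THP-1 DMSO replicate 2 this call was lost (0.96, adjusted p = 0.063). The brightest, 209970_x_at, had 0.51 ± 0.16 (adjusted p = 0.072), and the mean of the 5 differed by 0.73 ± 0.14 (adjusted p = 0.0089). With diclofenac the 5 CASP1 differences were 0.40 to 0.52 and none was called. Genes beside CASP1, such as CARD16, resemble it closely in sequence, and which of these transcripts each probe set binds was not tested.

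MYD88 was lower in THP-1, at 1630.2 and 1813.4 in THP-1 DMSO cells against 2783.6 and 2720.2 in HL-60 DMSO cells (-0.56 ± 0.14, or 1.47-fold lower, adjusted p = 0.026). With diclofenac the difference was -0.51 ± 0.14 (adjusted p = 0.045). Without THP-1 DMSO replicate 2 the DMSO difference of MYD88 was -0.78, and without replicate 1 it was -0.35. Neither MYD88 call was kept when any single HL-60 array or THP-1 diclofenac array was left out, nor without the intensity trend.

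PYCARD read 1598.3 and 1494.1 in THP-1 diclofenac cells, against 1968.2 and 2239.0 in HL-60 diclofenac cells, or 1.35-fold lower (-0.43 ± 0.12, adjusted p = 0.046). With DMSO its difference was -0.17 ± 0.12 (adjusted p = 0.38). Centring each array on its median ended the PYCARD call (adjusted p = 0.76), both MYD88 calls (0.19 with DMSO and 0.62 with diclofenac) and both NLRP3 calls (0.27 and 0.40), and kept their directions. No CASP1 probe set was called with that centring, which left IL18 as the only called member in both comparisons. The IL18 call with diclofenac was in turn lost with an offset of 16, with no offset and without the intensity trend. The brightest NLRP3 probe set kept its call with diclofenac under those settings.

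IL1B did not pass between the lines. By 39402_at the difference of THP-1 from HL-60 was -1.01 ± 0.29 with DMSO (adjusted p = 0.052) and 0.56 ± 0.29 with diclofenac (adjusted p = 0.32). Without THP-1 DMSO replicate 2 the DMSO difference was -1.41 and was called (adjusted p = 0.0055). By 205067_at the difference of IL1B was 0.70 ± 0.35 with DMSO (adjusted p = 0.24), opposite in sign, and 0.49 ± 0.35 with diclofenac (adjusted p = 0.52). With diclofenac both THP-1 arrays lay above both HL-60 arrays by either probe set, and with DMSO the 2 probe sets pointed in opposite directions.

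Over all 24 probe sets, 15 (62.5%) were higher on both THP-1 diclofenac arrays than on both HL-60 diclofenac arrays, where 28.5% of all probe sets were, and 5 (20.8%) were lower, where 30.4% were. With DMSO, 9 (37.5%) were higher, where 24.7% were, and 4 (16.7%) were lower, where 24.8% were. The 15 came from 6 genes, and CASP1, IL1RN and NLRP3 gave 11 of them. Counted by representatives with diclofenac, 4 of the 10 genes were higher and 4 were lower. By the same count with DMSO, 2 were higher and 4 were lower. With diclofenac IL1A had a probe set in each direction. The dimmest IL1RN probe set among the higher and the IL1R2 probe set among the lower were above background on no diclofenac array.

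**Figure D4:**
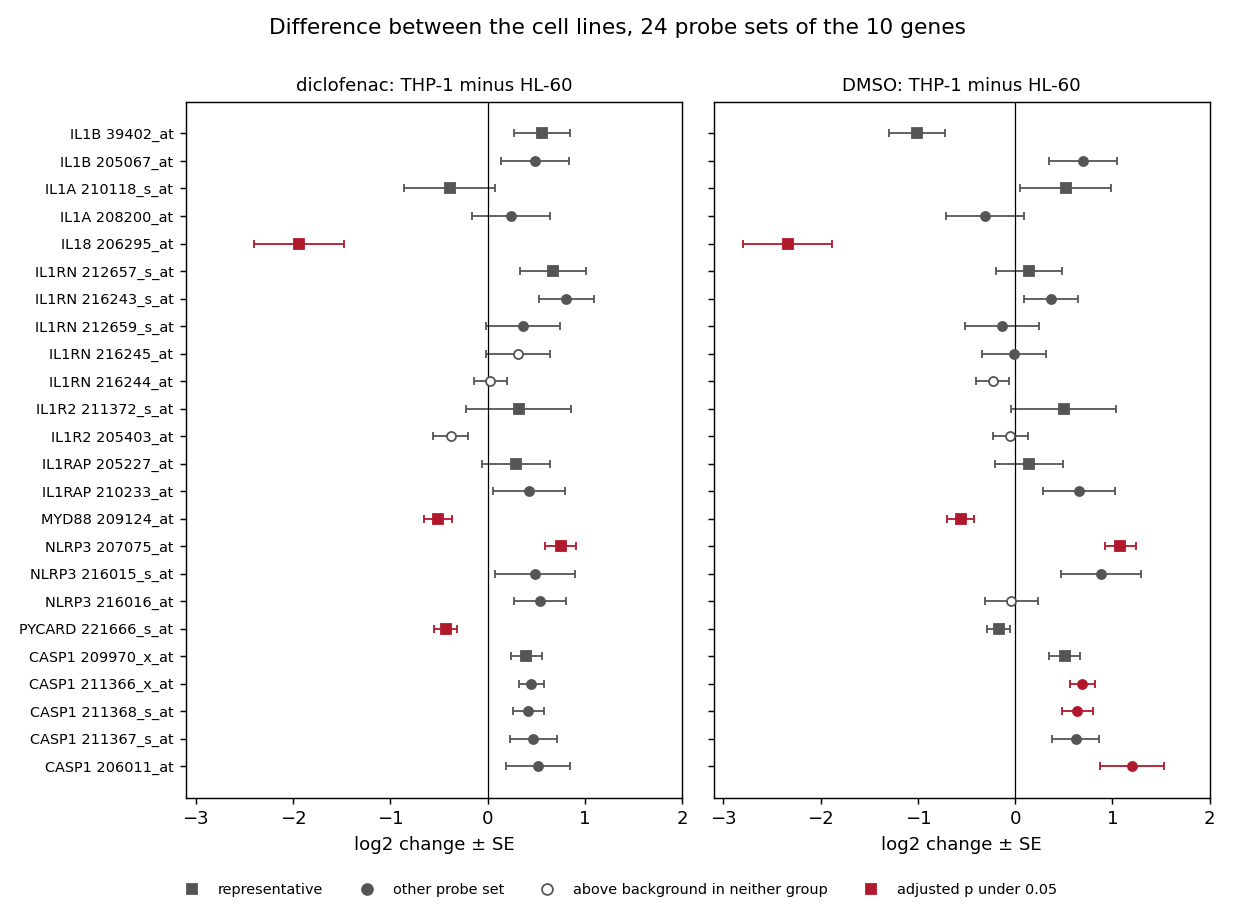
Log2 difference between the lines (x axis, THP-1 minus HL-60, with SE bars) for each of the 24 probe sets with diclofenac (left) and with DMSO (right). Red marks an adjusted p under 0.05. IL18 lies at -1.94 and -2.34, and NLRP3 207075_at at 0.75 and 1.08, while the 5 CASP1 probe sets lie above 0 in both panels.

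A list of 56 further genes of the pathway gave the setting of these members. Of these, 45 were measured and 42 were above background on at least 1 array. With diclofenac none was called in THP-1, where 0.184% of all genes were, or in HL-60, where 0.00836% were. At an unadjusted p under 0.05 there were 7 in THP-1 (15.6%, where 11.8% of all genes lay) and 3 in HL-60 (6.67%, where 4.56% lay). The median log2 change of the list was 0.07 in THP-1 and 0.05 in HL-60, against -0.01 and 0 for all genes. The 10 members had medians of -0.04 and 0.06.

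TXNIP and NEK7, both known to bind NLRP3, had small unadjusted p-values in both lines. TXNIP (201010_s_at) read 973.3 and 1019 in HL-60 diclofenac cells, against 592.4 and 500.6 in HL-60 DMSO cells. The log2 change was 0.82 ± 0.12 (adjusted p = 0.17), and its other 2 probe sets had 0.76 and 0.68. In THP-1 it read 2794.7 and 3062.1 with diclofenac, against 2105.1 and 1694.6 with DMSO (0.49 ± 0.12, adjusted p = 0.24). NEK7 had log2 changes of 0.37 ± 0.10 in THP-1 (adjusted p = 0.29) and 0.23 ± 0.10 in HL-60 (adjusted p = 1). Every diclofenac array lay above every DMSO array of its line for both genes, as for 18.7% of all probe sets in THP-1 and 20.1% in HL-60. Both genes were picked by their small p, so this is not separate evidence.

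In THP-1 the ATP-gated channel gene P2RX4 read 402 and 414 with diclofenac, against 235.6 and 144.8 with DMSO (1.27 ± 0.42, adjusted p = 0.38), and 0.61 without THP-1 DMSO replicate 2. The kinase gene MAP3K7 had -0.84 ± 0.25 by its brightest probe set (adjusted p = 0.34) and 1.42 ± 0.27 by another (206854_s_at, adjusted p = 0.13), so its probe sets went opposite ways. The brightest probe set of MAP3K7 had -0.43 without THP-1 DMSO replicate 2. IL18RAP, a chain of the IL-18 receptor, was not above background with diclofenac and at least 1.57-fold lower (adjusted p = 0.44). The sensor gene NOD1 had -0.73, SERPINB1 0.29 and CARD8 -0.26, none of them called, and without THP-1 DMSO replicate 2 the values were -0.35, 0.27 and -0.19. Without THP-1 DMSO replicate 1 all of the genes named here in THP-1 were called except CARD8, namely TXNIP, NEK7, P2RX4, MAP3K7, IL18RAP, NOD1 and SERPINB1, in the fit that called 6892 probe sets in all. In HL-60 the ligand gene IL33 had the second smallest p of the list (adjusted p = 0.65) but was not above background on any array. The others named by the rule were HSP90AB1 (-0.18), PELI2 (0.70), P2RX7 (at least 1.02-fold higher), IL18BP (-0.71) and MEFV (-0.51), none of them called.

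Between the lines with DMSO, 10 of the 45 were called (22.2%), where 18.7% of all genes were. Of these 10, 6 were higher in THP-1, as were 9.28% of all genes, and 4 were lower, as were 9.41%. With diclofenac 11 were called (24.4%), where 16.1% of all genes were, 6 of them higher (8.45% of all genes) and 5 lower (7.67%). On the receptor side, IL18R1, the ligand-binding chain of the IL-18 receptor, read 14.7 and 80.1 in THP-1 DMSO cells, neither above background, against 220.5 and 156.4 in HL-60 DMSO cells. It was at least 1.83-fold lower in THP-1 with DMSO (adjusted p = 0.012) and at least 2.66-fold lower with diclofenac (0.0033). Thus IL18 and IL18R1 were both lower in THP-1.

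Downstream of MYD88, the kinase gene IRAK1 read 2766.9 and 2688.7 in THP-1 DMSO cells, against 10092.2 and 10796.5 in HL-60 DMSO cells (-1.87 ± 0.11, adjusted p = 1.7e-05). IRAK3, an inhibitory relative, was higher in THP-1 (1.21 ± 0.29, adjusted p = 0.024), but its dimmer probe set had 0.25 ± 0.43, and the mean of the 2 was not called (0.73, adjusted p = 0.18). MAP3K7 (2.11 ± 0.25) was higher with DMSO, and 3 of its 4 probe sets were called. TAB2 (0.76 ± 0.17) was called by its brighter probe set, while the dimmer one had 0.12 ± 0.23. PELI1, a ubiquitin ligase, was not above background in HL-60 or on THP-1 DMSO replicate 2. Its THP-1 mean with DMSO stood 1.93-fold above the lowest signal that counts as detected in HL-60. With diclofenac PELI1 was at least 2.79-fold higher in THP-1.

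Among inflammasome regulators, TXNIP (1.79 ± 0.12) and CARD8 (0.63) were higher, and BRCC3 (-1.29 ± 0.17), which removes ubiquitin from NLRP3, was lower in THP-1 with DMSO. SERPINB1, an inhibitor of neutrophil proteases and of inflammatory caspase activation, read 655 and 675.6 in THP-1 DMSO cells, against 2637.7 and 2951.5 in HL-60 DMSO cells (-2.00 ± 0.10, adjusted p = 9.5e-06), and its second probe set had -2.51 ± 0.17. With diclofenac NEK7 (0.38 ± 0.10) and the gasdermin gene GSDME (1.47 ± 0.37) were also higher and PSTPIP1 (-1.05 ± 0.28) lower in THP-1. The gasdermin and PSTPIP1 differences with DMSO were 0.85 and -0.96 and were not called. With each array centred on its median, IL18R1, MAP3K7 and SERPINB1 kept their calls in both comparisons, IRAK1 kept its call with DMSO, and PELI1 and GSDME kept theirs with diclofenac, while the others lost theirs.

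The patterns most like IL1B 39402_at over the 8 arrays, by Pearson correlation of representatives, were those of RAD52 (0.968), ABCC1 (0.952), LIPA (0.941), ZFAND5 (0.938) and BASP1 (0.936). These are descriptions over arrays that share 4 groups, and the second IL1B probe set, at 0.1, was not among them.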

How the data were processed

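Per the labels, biotin-labelled cRNA from total RNA was hybridised to Affymetrix HU-133A arrays. The intensity values were taken as deposited by the authors, 1 linear value per probe set, with a mean of 500.1 to 500.2 on every array once the highest and lowest 2% were left out. The software behind them is not given in the sources used here. The arrays hold 22277 probe sets, of which 62 are controls and 22215 entered the fits, and the platform annotation gave 1 gene symbol for 19064, several for 1043 and none for 2108. No probe set with several symbols held a member.

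Intensities were turned to log2(value + 50) and quantile normalized. A model of 4 group means over all 8 arrays came from limma 3.58.1 (R 4.3.3) (4 residual degrees of freedom, intensity trend), with Benjamini-Hochberg adjustment across all probe sets, and 0.05 was the threshold. Log2 changes understate those of dim probe sets because of the offset. The fit was tested on simulated data. A gene's representative is its probe set with the highest mean. Where a group had no array above background, a fold is given only as a lower bound against the lowest signal that counts as detected. The mean of the other group then includes any of its arrays not above background. Every member probe set is reported. Of the pathway list, every called gene and up to 4 per direction by smallest p with diclofenac are named. The members and lists were chosen with earlier results of these data known. Alternatives are given at the end. Promoter windows are those of RefSeq (GRCh38.p14). Precision is limited by having 2 arrays per group.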

Additional observations from a re-analysis of the deposited data

How the results depend on the processing

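Results were recomputed without quantile normalization, with median centring, with an offset of 16 or none, without the dimmest 40% of probe sets, without the intensity trend, with a replicate block, with each line fitted alone, with a gene's probe sets averaged and without each array in turn. No called value changed sign. Of 386 values for diclofenac in THP-1, 6 crossed the threshold upward, all without a THP-1 DMSO array, and none of 386 in HL-60 did. The count of called member probe sets was 0 to 5 in THP-1 and 0 to 2 for the difference between the lines when 1 array was left out. With DMSO the lines differed by 1 to 10 when 1 array was left out and by 1 with median centring. With diclofenac they differed by 0 to 8 when 1 array was left out, by 1 with median centring or no offset, and by 2 without the intensity trend. Over all probe sets, 30 were called in THP-1 with diclofenac, against 0 when the line was fitted alone, when no trend was used or when arrays were centred on their medians, 51 without quantile normalization, 53 without the dimmest 40% and 0 to 6892 when 1 array was left out. Between the lines 3396 with DMSO and 2892 with diclofenac became 1145 and 1028 with median centring. In HL-60 the count was 1, against 5 without the dimmest 40%, 3 with the line alone 2 without quantile normalization and 0 to 11 when 1 array was left out. Fits with 1 array in a group assume that it varies like the others and hold fewer arrays. Without the dimmest 40%, 13329 probe sets were tested. Apart from that the cause was not tested. The median change of all genes in THP-1 was -0.15 without normalization and 0.20 with centring, and between the lines with DMSO it was 0.17 and -0.07. Of 585 values of the pathway list, 500 kept their direction and side of the threshold, 75 lost a call, 7 gained one and 3 moved.

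Replicate numbers did not pair the arrays. Deviations of same-numbered arrays had correlations of -0.01 (THP-1) and -0.00 (HL-60). With replicate number as a block within each line, 0 member probe sets were called for either diclofenac contrast or for their difference, and IL1B 39402_at kept 1.42 ± 0.31 (adjusted p = 0.21). The contrasts between the lines were not refitted with this block.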
